A study of Mus musculus with 34 samples.

Results

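The Skint cluster, as taken here, is a run of 10 related protein-coding genes, Skint1 to Skint10, on mouse chromosome 4. It was examined here through those regions of the deposited tables whose start lies between 111.8 and 113.7 Mb (GRCm38). These are 61 of the 248336 regions of a list shared by 3 of the 4 deposited count tables, and 15 of the 96988 regions of the list used by the other table, which holds H3K27ac. The cluster was chosen by its counts in DBA/2J cells, which were at or near 0 over part of it in both marks. Levels in DBA/2J against C57BL/6J are therefore given below as a description, without a test. Each region of the shared list is numbered by its order along the chromosome, from 1, which lies 19.2 kb from Slc5a9, to 61, in an intron of Skint5. The nearest shared-list region inside the lower limit starts at 111855737 and the nearest inside the upper limit starts at 113605822. Skint5 reaches past the upper limit, and 1 of its 10 regions lies inside, but gene totals below use all 10.

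The study used ChIP-seq on mouse embryonic stem cells for H3K9me3, the histone mark of heterochromatin, and for H3K27ac, which marks enhancers and promoters in use. It has 34 libraries in 12 groups. In 1 series, called the separate lines, each mark was measured in 3 C57BL/6J lines (B6 4-1, B6 4-4 and B6 5-1) and 3 DBA/2J lines (D2 2-9, D2 5-5 and D2 203), which the labels call biological replicates. The other series, called the repeated libraries, holds technical replicates of 1 line per genotype. The 4 genotypes were B6 (line B6 5-1), D2 (line D2 5-5), B6-13D2 (line QJ 6-1, strain B6.D2-(rs30079041-rs51756099)/Bakr) and D2-13B6 (line XE 2-4, strain D2.B6-(rs29224292-rs13469455)/Bakr on the sample labels). B6-13D2 is B6 except for a D2 segment of chromosome 13, and D2-13B6 is D2 except for a B6 segment of it, so chromosome 4 comes from the recipient strain in each. H3K27ac had 3 libraries per genotype, while H3K9me3 had 3 of B6, 2 of B6-13D2, 2 of D2 and 3 of D2-13B6. Every line was grown with serum, LIF, PD0325901 and CHIR99021, fixed with formaldehyde and cut with MNase. For H3K27ac the separate lines were precipitated with an abcam antibody and the repeats with one of Cell Signaling Technology, while H3K9me3 used an Active Motif antibody throughout.

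Skint genes encode membrane proteins of the immunoglobulin superfamily that are related to butyrophilins. The founding member, Skint1, acts in thymic epithelium and is required there for the selection of the γδ T cells that later populate the mouse epidermis. The other members share its domain plan, and less is known of what they do. Embryonic stem cells are not a known site of Skint function. In these cells none of the 10 Skint starts had an H3K27ac region within 1 kb. At the starts of 8 embryonic stem cell markers, 7 exceeded an H3K27ac level of 10 CPM, the count scaled to library size, and their summed level ran from 825 to 1030 CPM over the 4 genotypes. Of 7 epidermal and thymic epithelial markers 5 were at 0, with a summed level of 2.96 to 8.23 CPM. Of 5 fibroblast markers 2 were at 0, and the 5 summed to 7.23 CPM in B6, 14.0 in B6-13D2, 20.1 in D2 and 16.8 in D2-13B6. These levels come from listed regions within 1 kb of a start, so a 0 can mean that no region is listed there.

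Total counts per library ran from 1487862 to 2559262 for H3K9me3 in the separate lines, from 1538145 to 2185977 for H3K9me3 in the repeated libraries, from 15444270 to 18272793 for H3K27ac in the separate lines and from 8735674 to 11543469 for H3K27ac in the repeated libraries. D2-13B6 replicate 1 stood apart from the other D2-13B6 libraries in both marks, with a chi-square per degree of freedom of 2.46 to 2.81 against them. In the repeated H3K27ac series 1 pair of libraries per genotype differed by less than sampling noise and was counted as 1 sample, which leaves n = 2. Because the repeats are technical replicates of 1 line, their p-values measure the spread between libraries of a line and compare lines, not genotypes. No input library was used here, so a lower mark and fewer D2 reads that align to the reference cannot be told apart.

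One stretch of sequence recurs at 3 of the cluster's regions. It lies in region 18 in an intron of Skint4, in region 9 between Skint8 and Skint7, and in region 53 between Skint6 and Skint5. The 3 copies are shown 5′ to 3′ from the RefSeq GRCm38.p6 genome, so that they can be compared. Capitals mark the 165 bases that are the same in all 3. The search of the genome described below used a longer query, of 528 bases.
Region 18, Skint4 intron (chr4:112092507-112092706, plus strand): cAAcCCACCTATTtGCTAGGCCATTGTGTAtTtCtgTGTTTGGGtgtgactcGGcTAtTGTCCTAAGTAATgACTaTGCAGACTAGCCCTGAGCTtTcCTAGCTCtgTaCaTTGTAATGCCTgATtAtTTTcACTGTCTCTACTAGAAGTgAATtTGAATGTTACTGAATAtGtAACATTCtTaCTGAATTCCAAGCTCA
Region 9, between Skint8 and Skint7 (chr4:111963446-111963638, plus strand): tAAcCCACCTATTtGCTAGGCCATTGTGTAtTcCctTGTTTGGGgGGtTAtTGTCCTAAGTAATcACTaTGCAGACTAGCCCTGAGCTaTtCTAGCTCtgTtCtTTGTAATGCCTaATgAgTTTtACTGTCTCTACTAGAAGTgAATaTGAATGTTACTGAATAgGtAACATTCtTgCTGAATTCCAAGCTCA
Region 53, between Skint6 and Skint5 (chr4:113311988-113312196, minus strand): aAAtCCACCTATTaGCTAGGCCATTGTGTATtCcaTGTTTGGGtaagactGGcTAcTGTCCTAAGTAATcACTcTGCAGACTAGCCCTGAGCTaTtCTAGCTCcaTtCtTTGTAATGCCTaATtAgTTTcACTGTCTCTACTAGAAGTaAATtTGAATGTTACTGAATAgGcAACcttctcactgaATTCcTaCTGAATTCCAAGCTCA

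Over longer alignments, regions 9 and 18 matched at 83.0% of 658 columns, regions 18 and 53 at 80.7% of 550 columns and regions 9 and 53 at 78.3% of 552 columns. Of the 61 regions, 20 shared such a stretch with another region of the cluster, taken as at least 300 aligned columns at 75% identity or more, and these fell into 7 groups. The largest joined regions 9, 15, 18, 53 and 60. The group of regions 20, 29 and 38 had identities of 82.2% to 86.5%, and regions 24 and 25, both in Skint4, matched at 90.6% of 384 columns. Repeats filled the cluster's regions more than the list as a whole: the mean share of repeat-masked bases was 54.3% in the 61 regions and 25.8% over all regions. For 9 of the 61 regions the genome held another copy at 95% identity over at least 80% of the region, with up to 12376 copies for region 46 in Skint6. Among the RefSeq promoters of the 10 genes, which span 300 bases each, the closest pair was Skint5 and Skint6 with 89.7% identity over 300 aligned bases, and the next was Skint2 and Skint6 with 74.5% over 255. Of 3 motifs of factors active in embryonic stem cells, searched on both strands in the central 300 bases, ATGCAAAT (the octamer) was in 1 of the 61 regions against 3.23% of all regions, TCAAGGTCA (an ESRRB-type motif) in 2 against 1.37% and GGGTGTGG (a KLF-type motif) in 2 against 5.87%.

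The regions within Skint genes lay in introns, away from the starts of those genes. Elsewhere in the interval, regions 2 and 3 overlapped exons of Slc5a9, with 13, 15 and 10 and 11, 15 and 10 H3K27ac counts in the B6 repeats, and region 12 an exon of the small RNA gene Gm25844. Skint4 and Skint6 held 9 shared-list regions each, Skint8, Skint7, Skint1 and Skint3 held 2 each, and Skint9, Skint2 and Skint10 held 1 each. Every shared-list region within a Skint gene was in an intron of that gene, and region 44 in Skint6 also overlapped an exon of the pseudogene Gm12818. The region nearest to a start was 3.1 kb away at Skint7 and 42.2 kb away at Skint2. A mean of at least 10 counts over the B6 repeats was reached by 33 of the 61 regions for H3K9me3 and by 27 for H3K27ac, and 20 reached it in both marks. Thus 60.6% of the regions marked by H3K9me3 at this level also had H3K27ac at this level, against 72.4% over the whole list.

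**Figure D1:**
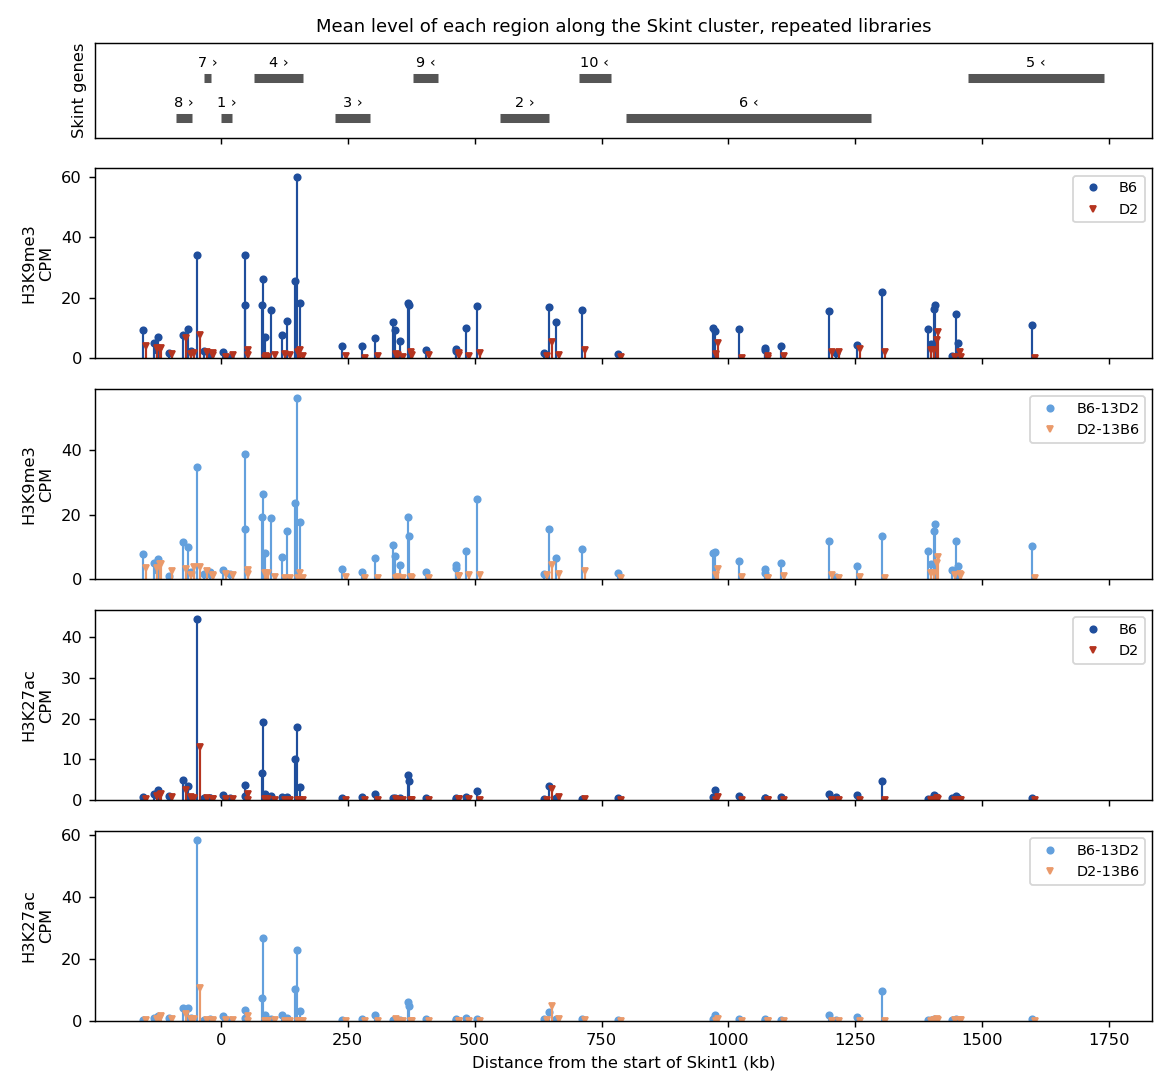
Mean level in CPM of each of the 61 shared-list regions in the repeated libraries, by distance in kb from the start of Skint1, with gene bodies on top, B6 and D2 or B6-13D2 and D2-13B6 drawn side by side, and each mark on its own axis. H3K27ac stands highest at region 9, between Skint8 and Skint7, and at regions 18 and 24 in Skint4, and the D2 and D2-13B6 levels are near 0 over most of the cluster.

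Summed over the cluster, both marks were low in the lines with D2 chromosome 4. H3K9me3 in the repeats was 656 ± 41.4 CPM in B6 (SD, n = 3) and 622 ± 7.42 in B6-13D2 (SD, n = 2). It was 121 ± 21.8 CPM in D2 (SD, n = 2) and 103 ± 11.4 in D2-13B6 (SD, n = 3). The groups with B6 chromosome 4 and those with D2 chromosome 4 did not overlap. H3K27ac in the repeats was 176 ± 8.66 CPM in B6, 197 ± 6.32 in B6-13D2, 32.2 ± 0.693 in D2 and 28.3 ± 1.23 in D2-13B6 (SD, n = 2 each). In the separate lines H3K9me3 was 1160 ± 70.4 CPM in B6 and 340 ± 9.46 in D2 (SD, n = 3 each). The H3K27ac list of the separate lines gave 71.6 ± 6.35 CPM over 15 regions in B6 and 38.7 ± 1.96 in D2 (SD, n = 3 each). The D2 to B6 ratio of these sums was 0.294 for H3K9me3 in the separate lines and 0.184 in the repeats, and 0.54 and 0.184 for H3K27ac.

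Skint1, the member with the known function, carried little of either mark. Its 2 regions had 1, 5 and 4 H3K9me3 counts in the B6 repeats, 11 and 2 in B6-13D2, 1 and 3 in D2, and 4, 5 and 2 in D2-13B6. These groups overlapped. For H3K27ac it had 17, 17 and 14 counts in B6, 20, 24 and 19 in B6-13D2, 6, 5 and 3 in D2, and 3, 2 and 4 in D2-13B6. The lines with B6 chromosome 4 were all higher here. Skint7, its neighbour, overlapped between lines for H3K9me3, with 8, 5 and 4 counts in B6, 3 and 7 in B6-13D2, 5 and 3 in D2, and 3, 8 and 3 in D2-13B6. Its H3K27ac counts were 16, 5 and 6 in B6, 7, 10 and 14 in B6-13D2, 5, 9 and 9 in D2, and 4, 3 and 2 in D2-13B6. The D2 to B6 ratio of Skint7 was 0.905 for H3K27ac and 0.812 for H3K9me3 in the repeats and 1.43 for H3K9me3 in the separate lines, and the B6 and D2 repeats overlapped in both marks.

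Skint4 held the most counts of the 10 genes in the repeats of lines with B6 chromosome 4 and, in H3K9me3, the lowest D2 to B6 ratio. Its 9 regions had 280, 247 and 245 H3K9me3 counts in the B6 repeats, 291 and 275 in B6-13D2, 7 and 20 in D2, and 7, 15 and 19 in D2-13B6. For H3K27ac they had 526, 566 and 595 counts in B6, 799, 744 and 807 in B6-13D2, 0, 17 and 7 in D2, and 6, 10 and 0 in D2-13B6. Libraries with B6 and with D2 chromosome 4 were far apart in both marks. The same held among the separate lines, where H3K9me3 counts in Skint4 were 426, 340 and 361 in the B6 lines and 24, 39 and 45 in the D2 lines. The separate-line H3K27ac counts in Skint4 were 401, 354 and 342 in B6 and 10, 13 and 11 in D2. The D2 to B6 ratio of Skint4 was 0.0655 and 0.0571 for H3K9me3 in the separate lines and the repeats, and 0.0298 and 0.0155 for H3K27ac.

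The strongest regions of Skint4 came close to 0 in D2. Region 18 had 173, 179 and 178 H3K27ac counts in the B6 repeats, 263, 265 and 301 in B6-13D2, 0, 5 and 1 in D2, and 0, 1 and 0 in D2-13B6. Region 24, the H3K9me3 peak of the gene, had 93, 78 and 71 H3K9me3 counts in B6, 91 and 74 in B6-13D2, 2 and 5 in D2, and 0, 3 and 5 in D2-13B6. The same region had 143, 174 and 179 H3K27ac counts in B6, 243, 229 and 239 in B6-13D2, 0, 0 and 1 in D2, and 1, 1 and 0 in D2-13B6. Region 24 thus carried both marks in the lines with B6 chromosome 4. Set against a floor of 3 counts per library, its H3K27ac level was at least 52.5-fold lower in D2 than in B6. Region 23, also in Skint4, was at least 29.6-fold lower.

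Skint5 and Skint6, the longest genes of the cluster, had lower D2 to B6 ratios in H3K27ac than in H3K9me3. Skint5 had 128, 118 and 113 H3K27ac counts in the B6 repeats, 180, 192 and 216 in B6-13D2, 3, 4 and 1 in D2, and 4, 7 and 3 in D2-13B6. Its H3K9me3 counts were 94, 93 and 115 in B6, 119 and 126 in B6-13D2, 14 and 15 in D2, and 12, 6 and 14 in D2-13B6. The D2 to B6 ratio of Skint5 in the repeats was 0.0235 for H3K27ac and 0.162 for H3K9me3, and in the separate lines it was 0.257 and 0.514. Skint6 had 102, 93 and 76 H3K27ac counts in B6, 72, 99 and 62 in B6-13D2, 9, 8 and 6 in D2, and 8, 1 and 7 in D2-13B6. Its H3K9me3 counts were 92, 83 and 74 in B6, 64 and 81 in B6-13D2, 17 and 20 in D2, and 10, 14 and 12 in D2-13B6. The ratio of Skint6 in the repeats was 0.0892 for H3K27ac and 0.25 for H3K9me3, again without overlap between lines of different chromosome 4. In the separate lines it was 0.5 and 0.559, so the ratios of both genes were higher there. The separate-line H3K27ac ratios rest on 2 regions per gene of the other list, against 9 shared-list regions in Skint6 and 10 in Skint5. In Skint6, 1 of the 2 was near its B6 level in D2, with 1.8 against 1.98 CPM. The other was not, with 0.157 against 1.93 CPM.

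Skint8, at the near end of the cluster, kept more H3K27ac counts in D2 than these genes. Its H3K27ac counts were 89, 76 and 68 in the B6 repeats, 91, 83 and 90 in B6-13D2, 36, 21 and 28 in D2, and 29, 23 and 22 in D2-13B6. Its D2 to B6 ratio was 0.38 for H3K27ac in the repeats and 0.587 in the separate lines. Its H3K9me3 counts were 27, 19 and 25 in B6, 25 and 38 in B6-13D2, 8 and 12 in D2, and 4, 5 and 9 in D2-13B6, with a D2 to B6 ratio of 0.471. Per kilobase of region, B6 H3K27ac was 10.4 CPM in Skint8 and 7.97 in Skint4, above 2.33 in Skint5 and 2.05 in Skint6. For H3K9me3 per kilobase, B6 levels ran from 29.8 CPM in Skint10, 24.9 in Skint4 and 21.6 in Skint8 down to 3.0 in Skint2 and 2.67 in Skint1. Skint10 is carried by a single region, with 17, 22 and 26 H3K9me3 counts in B6, 14 and 14 in B6-13D2, 4 and 3 in D2, and 1, 4 and 5 in D2-13B6. Its H3K27ac stayed at 6 counts or fewer in every repeated library.

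The remaining members were near the floor. Skint3 had 12, 9 and 15 H3K27ac counts in B6, 7, 12 and 7 in B6-13D2, and 0 in each of the 6 D2 and D2-13B6 libraries. Its H3K9me3 counts were 9, 12 and 13 in B6, 8 and 8 in B6-13D2, 0 and 2 in D2, and 3, 0 and 0 in D2-13B6. The lines with B6 chromosome 4 were higher in both marks. Skint9 did not exceed 5 counts in any repeated library of either mark, and Skint2 did not exceed 7.

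**Figure D2:**
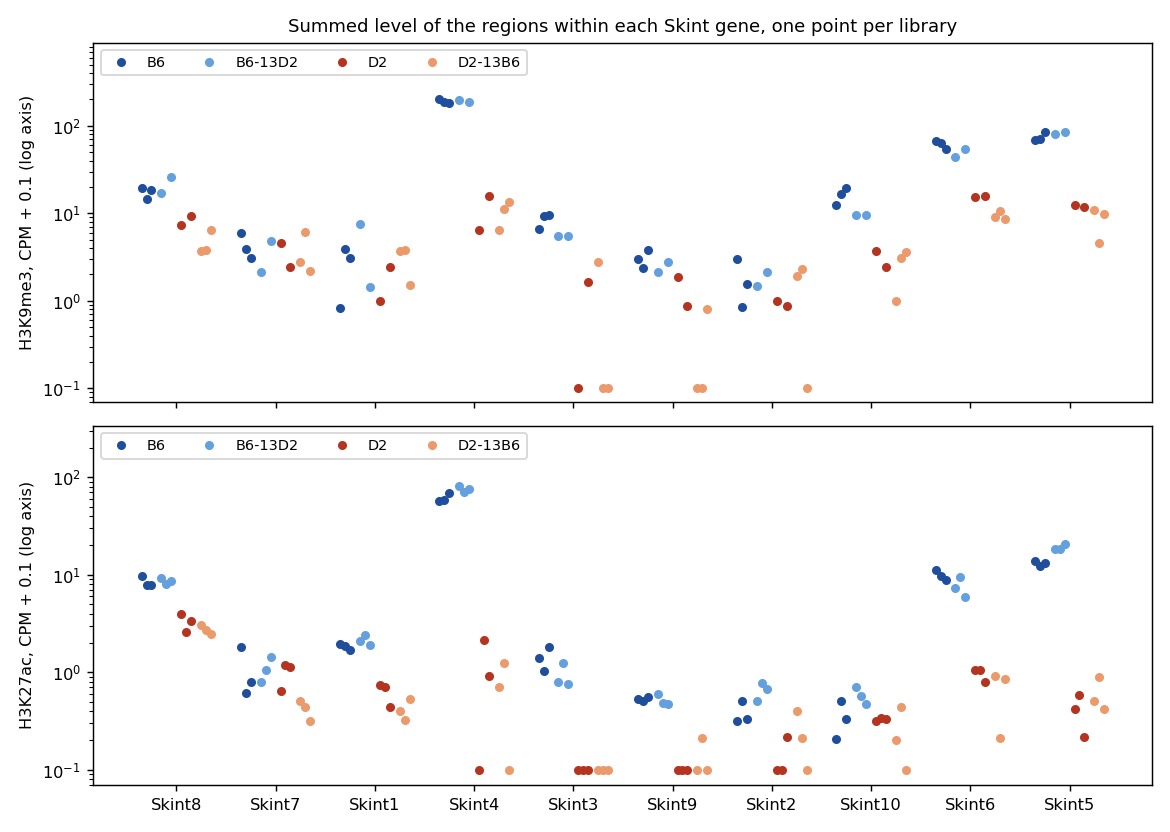
Summed level of the regions within each Skint gene in every repeated library, as CPM + 0.1 on a log axis, 1 point per library, coloured by line, H3K9me3 above and H3K27ac below. Skint4 shows the widest gap between lines with B6 and with D2 chromosome 4 in H3K9me3, while Skint7, Skint1 and Skint2 overlap there.

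The loss in D2 was uneven along the cluster. A region was counted as without D2 counts when its mean over the B6 libraries was at least 10 and each D2 library had at most 3. In the H3K27ac repeats 13 of 27 such B6 regions met this, against 0.506% over the table. In the H3K9me3 repeats 16 of 33 did, against 1.72%. In the separate lines 8 of 33 did for H3K9me3, against 0.757%, and 3 of 15 for H3K27ac, against 0.101%. With a floor of 0 counts these 4 counts were 2, 3, 0 and 0, and with a B6 mean of at least 20 counts both repeats gave 7 and the H3K9me3 separate lines 4. Because the cluster was chosen for this loss, nothing is read from the gap to the background. In both marks of the repeats together 5 of 20 regions met it, among 63 in the whole list, a background of 0.182%. Within 1 Mb past either limit, 5 of 33 regions met it in the H3K27ac repeats and 2 of 26 in the H3K9me3 repeats. In the separate lines 0 of 15 did for H3K9me3 and 0 of 13 for H3K27ac. The upper side holds the rest of Skint5, which ends at 113999503. Runs without D2 counts that cross the upper limit end within it, at 113964307 for H3K27ac and 113785587 for H3K9me3. These flank counts thus include regions of a gene of the cluster.

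Runs were taken over consecutive regions with a B6 mean of at least 10 counts, so regions below that level are skipped. Among 567 runs without D2 counts in the H3K27ac repeats, the run with the most regions lay in this cluster. It held 8 such regions over 405.7 kb, from region 20 in Skint4 (starting at 112109264) to region 38 in the pseudogene Gm12819 (starting at 112514104). Region 20, the first inside, had 11, 8 and 11 H3K27ac counts in B6 and 0, 1 and 1 in D2. Region 38, the last inside, had 20, 26 and 17 in B6 and 3, 0 and 0 in D2. The first before the run, region 19 in Skint4, missed the floor through 1 library, with D2 counts of 0, 5 and 0. The first with enough B6 counts after it, region 40, lies 2.4 kb from Skint2 and was not low in D2, with 27, 42 and 30 counts in B6 and 18, 26 and 24 in D2. Further runs spanned 4 regions and 282.8 kb up to region 53, and 4 regions and 506.5 kb from region 59 to past the upper limit. In the H3K9me3 repeats the cluster held a run of 4 regions over 52.0 kb, from region 16 to region 20. Among 738 runs it was first by span of those with 4 regions, the most seen, ahead of runs of 40.7 and 23.0 kb on chromosomes 3 and 11. At the upper limit, region 61 and the next region of the list, which lies outside it in Skint5, formed a run of 2 regions over 179.8 kb in the H3K9me3 repeats.

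Some regions of the cluster kept counts in D2. Region 9, the H3K27ac maximum, had 399, 427 and 405 counts in the B6 repeats, 595, 583 and 636 in B6-13D2, 129, 97 and 118 in D2, and 89, 97 and 111 in D2-13B6. Its ratio of B6 to D2 was 3.42. In the separate lines the H3K27ac region that overlaps it had 595, 440 and 385 counts in the B6 lines and 352, 386 and 399 in the D2 lines. Scaled for depth these were 33.9, 27.7 and 24.4 CPM in B6 and 22.6, 21.3 and 23.0 CPM in D2, close to each other but without overlap. At the region before it in that list, between Skint8 and region 9, counts were higher in D2, with 48, 44 and 46 in B6 and 81, 81 and 98 in D2. The same order was seen between Skint1 and Skint4, where the separate lines had 39, 37 and 30 counts in B6 and 63, 80 and 62 in D2. The shared-list regions that overlap this last one, regions 15 and 16, had the opposite order in the H3K27ac repeats, with 32, 34 and 39 counts in B6 and 18, 10 and 10 in D2 at region 15, and 8, 12 and 6 in B6 and 1 in each D2 library at region 16. The antibody, region list and libraries differ between these series, and their part in this was not tested.

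H3K9me3 at some regions also differed between the series. Over 29 regions with a B6 mean of at least 10 counts in both H3K9me3 tables, the median D2 to B6 ratio was 0.258 in the separate lines and 0.099 in the repeats, against 0.842 and 0.727 over all such regions. At 4 of the 29, or 13.8%, D2 kept at least 0.5 of the B6 level in the separate lines and at most 0.25 in the repeats, against 0.967% of 26990 regions. These were region 15 with ratios of 0.531 and 0.081, region 42 in Skint10 with 0.705 and 0.184, region 50 in Skint6 with 0.539 and 0.128, and region 59 with 0.704 and 0.135. With line D2 5-5 alone in place of the 3 D2 lines, the line that the repeats used, 5 of the 29 met it, or 17.2%, against 0.945%. At region 15, the H3K9me3 counts in the separate lines were 90, 85 and 66 in B6 and 51, 85 and 54 in D2. In the repeats they were 55, 37 and 47 in B6 and 1 and 6 in D2. None of the 29 had the reverse, a ratio of at most 0.25 in the separate lines and at least 0.5 in the repeats. Region 54, between Skint6 and Skint5, had too few B6 counts in the separate lines to be among the 29, and was chosen after its values were seen. There H3K9me3 was higher in D2, with 29, 32 and 24 counts against 10, 8 and 4 in B6, while in the repeats it was lower, with 1 and 6 counts against 16, 10 and 13 in B6. Depth and libraries differ between these series, and their part in this was not tested.

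**Figure D3:**
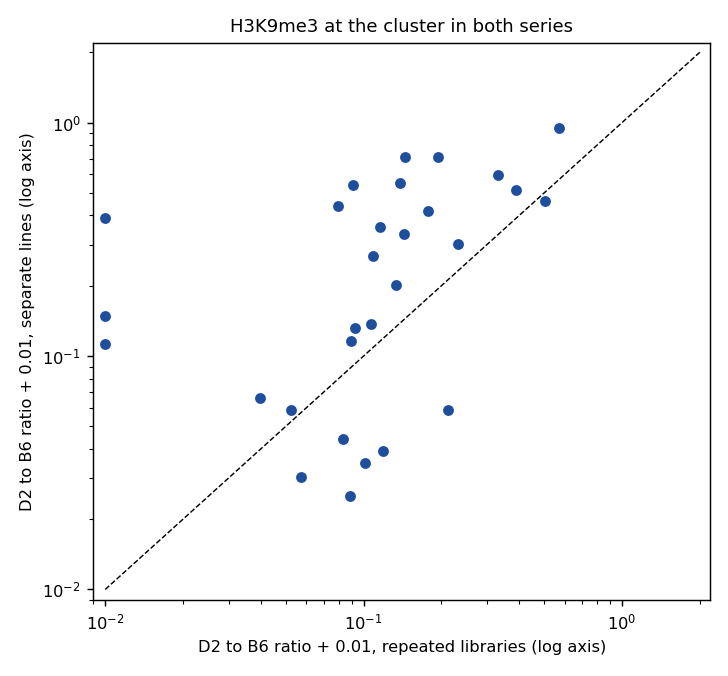
D2 to B6 ratio of H3K9me3 at the 29 regions with enough B6 counts in both tables, repeats on the horizontal axis and separate lines on the vertical axis, each as ratio + 0.01 on a log axis. The 4 regions with at least 0.5 in the separate lines and at most 0.25 in the repeats stand at the upper left, and no region stands at the lower right.

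The lines that share chromosome 4 but differ in the chromosome 13 segment were compared at the cluster with edgeR's quasi-likelihood test, and these contrasts did not choose the cluster. H3K9me3 did not change past the threshold at any of the 36 cluster regions that passed the filter on low counts, in B6-13D2 minus B6 or in D2 minus D2-13B6. With edgeR 0 of 36 were called in each, against 1.69% and 2.2% of all regions. An unadjusted p under 0.05 was seen at 3 and 1, and DESeq2 also called 0. In D2 and D2-13B6 many of these regions had few or no H3K9me3 counts, so a difference between those lines was hardly detectable there. H3K27ac changed at 4 of 38 regions in B6-13D2 minus B6, or 10.5% against 13.0% of all regions, a share near the background; 3 were higher, against 7.6% of all regions, and 1 lower, against 5.4%. The count was 10 of 38 with only the 2 lines in the fit, or 26.3% against 24.2% of all regions in that fit, and 1 of 14 by DESeq2, or 7.14% against 10.3%. The summed fibroblast marker level given above was also higher in B6-13D2 than in B6, as was the stem cell marker sum, with 990 against 825 CPM. The epidermal and thymic epithelial sum was lower, with 2.96 against 4.18 CPM. The part of these levels in the changes was not tested. The median log2 fold change of the 38 was -0.01, against -0.06 over all regions.

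At 3 of these regions H3K27ac was higher in B6-13D2. Region 53, between Skint6 and Skint5, had 38, 50 and 40 counts in B6 and 103, 99 and 94 in B6-13D2, without overlap. Its log2 fold change was 1.04 ± 0.21 (SE; edgeR quasi-likelihood test, Benjamini-Hochberg adjusted p = 0.000486). Region 18 in Skint4, with the counts given above, changed by 0.45 ± 0.15 (SE; edgeR, adjusted p = 0.0449). Region 21 in Skint4 had 7, 7 and 9 counts in B6 and 23, 16 and 24 in B6-13D2, and changed by 1.24 ± 0.38 (SE; edgeR, adjusted p = 0.024). Region 53 kept its call in each of 20 fits, DESeq2 included. The calls at regions 18 and 21 were lost in 8 of 20 and 5 of 18 fits, with adjusted p up to 0.141 and 0.0981. Both were lost with scaling by library totals. Region 18 also lost its call without B6 replicate 1, 2 or 3 and without B6-13D2 replicate 2 or 3, and region 21 without B6 replicate 1 or 2 and without B6-13D2 replicate 1 or 3. Region 9, which shares the stretch of regions 18 and 53, changed by 0.36 ± 0.13 and missed the threshold (SE; edgeR, adjusted p = 0.0547), though 14 of 20 fits called it, with adjusted p from 0.00012 to 0.142.

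H3K27ac was lower in B6-13D2 at region 38. This region lies in an intron of the pseudogene Gm12819, 42.2 kb from Skint2, and had 20, 26 and 17 counts in B6 and 5, 3 and 5 in B6-13D2. Its log2 fold change was -2.41 ± 0.44 (SE; edgeR, adjusted p = 8.45e-05), and the call held in each of the 18 fits that tested it. H3K9me3 at region 38 went from 31, 20 and 19 counts in B6 to 35 and 38 in B6-13D2, a log2 fold change of 0.52 ± 0.28 that missed the threshold (SE; edgeR, adjusted p = 0.59). H3K9me3 at region 53 was 30, 30 and 29 counts in B6 and 22 and 17 in B6-13D2, without overlap. Its log2 fold change of -0.72 ± 0.30 also missed the threshold (SE; edgeR, adjusted p = 0.346).

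On the D2 background 1 of 38 regions changed in H3K27ac, or 2.63% against 6.67% of all regions (5.24% lower). Region 40 had 18, 26 and 24 counts in D2 and 40, 44 and 46 in D2-13B6, and its log2 fold change in D2 minus D2-13B6 was -0.84 ± 0.25 (SE; edgeR, adjusted p = 0.0255). Without D2 replicate 1 or D2 replicate 2 this call was lost, with adjusted p of 0.113 and 0.0663, as it was by DESeq2 with 0.311 and with only the 2 lines in the fit with 0.139. Without D2-13B6 replicate 1, the library that stood apart, the call held. At regions 18, 23, 24 and 53 both D2 lines were at or near the floor, so no fold is given and a difference between them was not detectable there. The difference of the segment contrasts between backgrounds was tested as an interaction. By edgeR it was called at 0 of 36 regions for H3K9me3 and 0 of 38 for H3K27ac, against 0.389% and 5.3% of all regions. In each mark 2 had an unadjusted p under 0.05. At many of these regions D2 and D2-13B6 had few or no counts, as at region 17 with 0 H3K9me3 counts in D2. A difference could hardly be called at those, so these counts do not show that none exists. By gene the interaction was called at 0 of 6 for H3K9me3 and 0 of 7 for H3K27ac, against 0.0199% and 12.6% of all genes. In each mark 1 gene had an unadjusted p under 0.05. Skint3 had 0 H3K27ac counts in D2 and in D2-13B6, so its interaction could not be estimated. Skint4 and Skint5 also had few H3K27ac counts in those lines, so these counts do not show that no difference exists.

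**Figure D4:**
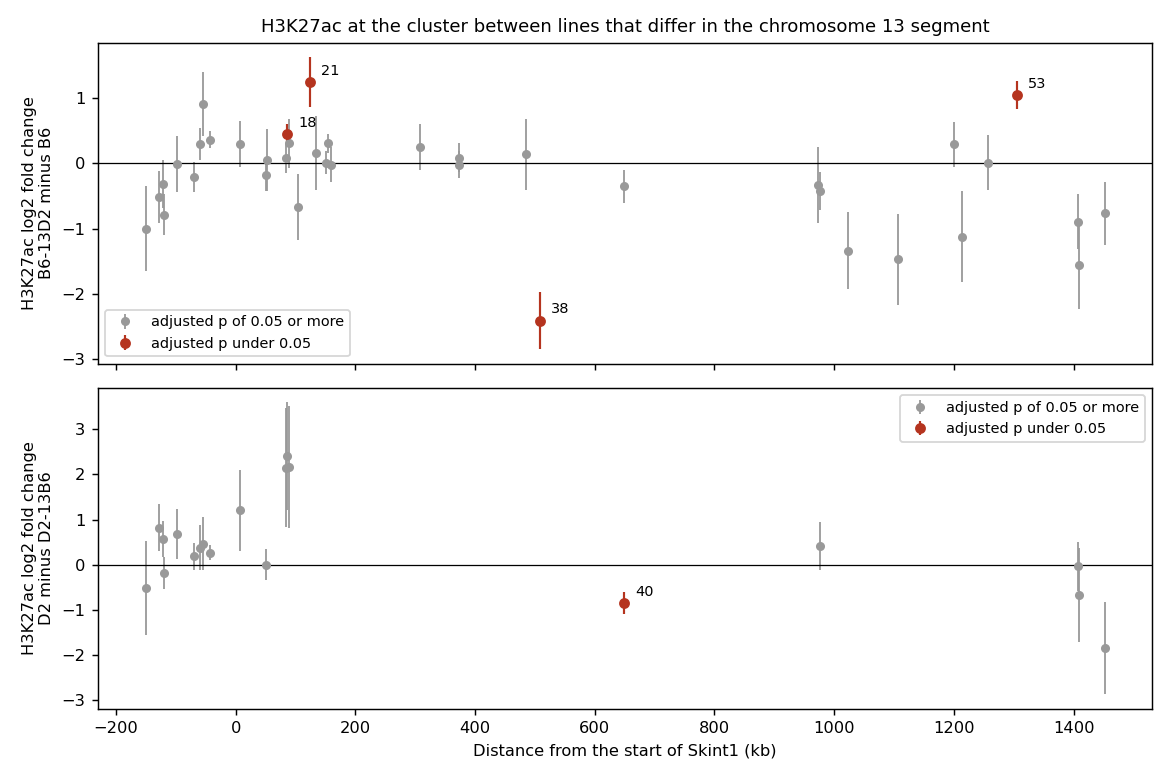
H3K27ac log2 fold change with its SE at cluster regions with more than 3 counts in at least 1 library of the pair, by distance in kb from the start of Skint1, for B6-13D2 minus B6 (38 regions) and D2 minus D2-13B6 (19 regions). Red points have an edgeR adjusted p under 0.05: regions 18, 21 and 53 above 0 and region 38 below 0 in the upper panel, and region 40 below 0 in the lower.

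Summed by gene, 1 member was called in the segment contrasts. Of the 7 Skint genes that passed the filter for H3K27ac, Skint5 was higher in B6-13D2 than in B6, by 0.56 ± 0.15 on the log2 scale (SE; edgeR, adjusted p = 0.0103), and 19.6% of all genes were called, 12.4% higher. The call was lost without B6 replicate 3 and by DESeq2, with adjusted p of 0.0759 and 0.0704, and without D2 replicate 2 or D2-13B6 replicate 1 a second Skint gene was called. Skint4 changed by 0.29 ± 0.13 and missed the threshold (SE; edgeR, adjusted p = 0.123). In D2 minus D2-13B6 edgeR called 0 of 7, against 11.1% of all genes, and DESeq2 0, while Skint7 had an unadjusted p of 0.021. Skint3 had 0 H3K27ac counts in both of these lines, so a difference was not detectable there. For H3K9me3 edgeR called 0 of 6 genes in both contrasts, against 0.486% and 0.502% of all genes, and DESeq2 0, and 1 gene, Skint6, had an unadjusted p under 0.05 in D2 minus D2-13B6.

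The low D2 levels were also present in the line D2-13B6, whose libraries did not choose the cluster. D2-13B6 has D2 chromosome 4 as D2 does, so this is not independent evidence of the loss. In D2-13B6 minus B6-13D2 edgeR called 34 of 36 tested regions lower for H3K9me3, against 20.3% of all regions in either direction and 11.8% lower. For H3K27ac it called 28 of 38 lower and 1 higher, against 30.4% in either direction, 13.7% lower and 16.8% higher. Among regions given an adjusted p, DESeq2 called 22 of 26 for H3K9me3, against 10.7% of all, and 16 of 23 for H3K27ac, against 21.3%. With a filter at a mean of 20 counts 3 of 3 and 14 of 15 tested were called, against 37.8% and 49.6%. In the edgeR fit the other 25 and 23 regions did not pass the filter on low counts. A region that passed only through the B6-13D2 libraries had to differ, so these counts are given as a description. By gene, 6 of 6 tested were lower for H3K9me3 and 7 of 7 for H3K27ac, against 14.1% and 42.6% of all genes in either direction and 7.76% and 20.2% lower.

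The levels of single genes and regions are given for this pair of lines without a test, since it sets D2 chromosome 4 against B6 chromosome 4 as the choice of the cluster did. The D2-13B6 to B6-13D2 ratio of Skint4 was 0.0534 for H3K9me3 and 0.00764 for H3K27ac. That of Skint5 was 0.1 for H3K9me3 and 0.0267 for H3K27ac. Both genes were thus low in D2-13B6 as they were in D2. For H3K27ac, Skint1 had a ratio of 0.157. Skint7 had 0.321, against 0.905 between D2 and B6, with at most 16 counts in any library. Skint8, which kept 29, 23 and 22 H3K27ac counts in D2-13B6, had a ratio of 0.308.

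At single regions, bounds are given where D2-13B6 was at or below the floor. Set against the floor of 3 counts per library, H3K27ac was at least 83.2-fold lower at region 18 and at least 71.5-fold lower at region 24 in D2-13B6 than in B6-13D2. Region 53 was at least 29.8-fold lower. Region 9 differed less, with a ratio of 5.52. Region 40 was the exception. Its H3K27ac counts of 30, 27 and 30 in B6-13D2 and 40, 44 and 46 in D2-13B6 had the opposite order and did not overlap. At the same region H3K9me3 was lower in D2-13B6, with 5, 5 and 7 counts against 24 and 22 in B6-13D2.

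The stretches shared by cluster regions were then followed through the rest of the genome. They were chosen after the values of regions 18, 38 and 53 had been seen, and the counts are descriptive. The stretch of regions 9, 18 and 53 was searched with 528 bases, 73.9% of them repeat-masked. It was in 733 other regions on 20 chromosomes, 31 of them on chromosome 4. In B6-13D2 minus B6, H3K27ac rose at 379 of 719 tested (52.7%, against 7.6% of all regions) and fell at 4, with a median log2 fold change of 0.57, against -0.06 over all regions. In D2 minus D2-13B6, 24 rose and 38 fell, together 8.62% against 6.67%, with a median of -0.07. H3K9me3 of the same copies changed at 8 of 606 in the first contrast and 1 of 606 in the second, 1.32% and 0.165% against 1.69% and 2.2%. The direction at cluster regions 18 and 53 was thus that of most called copies.

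The stretch of regions 20, 29 and 38, which is repeat-masked over its whole 372 bases, was in 1188 other regions on 21 chromosomes. H3K27ac fell at 630 of 1067 tested copies in B6-13D2 minus B6 (59.0%, against 5.4% of all regions), rose at 1 and had a median log2 fold change of -1.63. In D2 minus D2-13B6 it fell at 724 (67.9%, against 5.24%), rose at 0 and had a median of -2.02. H3K9me3 rose at 145 of 1176 tested copies in the first contrast (12.3%, against 1.23%), fell at 1 and had a median of 0.30. In the second it rose at 392 (33.3%, against 1.81%), fell at 0 and had a median of 1.08. In the cluster, region 38 fell by 2.41 and region 20 changed by -0.67 without passing the threshold (edgeR, adjusted p = 0.433), while region 29 was not tested for H3K27ac. Where several copies are nearly alike, reads may be shared between them, and how the authors assigned such reads is not given in the sources used here.

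**Figure D5:**
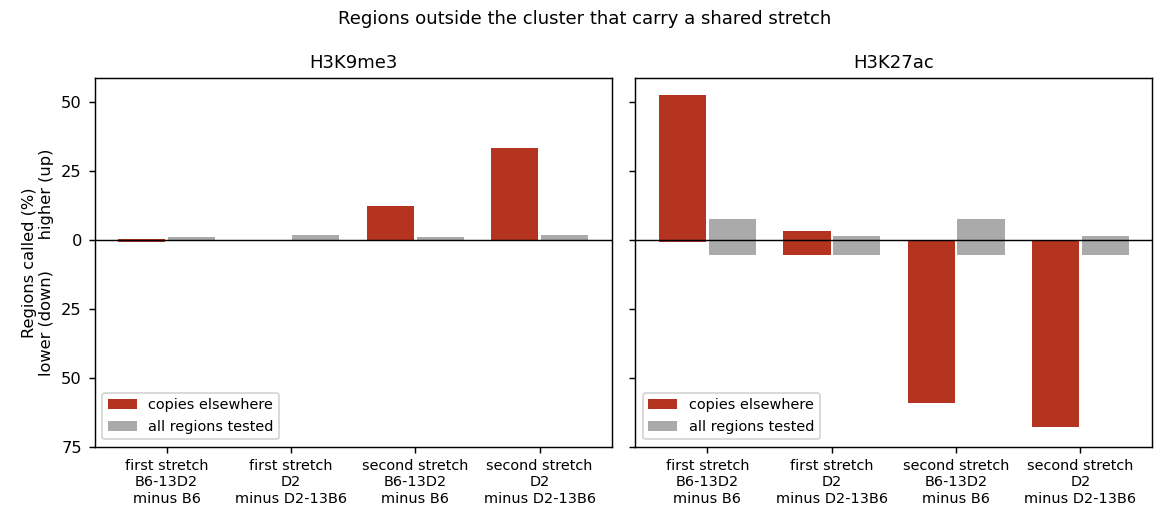
Percent of tested regions outside the cluster that carry a shared stretch and were called higher (up) or lower (down) by edgeR, in red, beside the same percent of all regions tested, in grey, for each mark and each segment contrast. For H3K27ac, 52.7% of copies of the stretch of regions 9, 18 and 53 were higher in B6-13D2 than in B6, and 59.0% of copies of the stretch of regions 20, 29 and 38 were lower.

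Among 9724 genes compared, those whose levels followed Skint4 most closely over the repeated libraries were Zfp988 with a mean Pearson r of 0.977 over both marks, Zfp979 with 0.973, Cpq with 0.972, Zfp986 with 0.963 and Mid1 with 0.962. These are descriptive values over 10 H3K9me3 and 12 H3K27ac libraries that share the 4 lines. None of the 5 came as close to 0 in D2 as Skint4 did: their D2 H3K27ac levels ran from 28.0 CPM at Cpq to 275 at Zfp988. Of 10 butyrophilin-related genes outside the cluster, 7 passed the filter in each mark. Their H3K27ac was lower in B6-13D2 than B6 at 1 of 7 (Btnl9, log2 fold change -0.93, edgeR adjusted p = 0.0364). It was higher in D2 than D2-13B6 at 2 of 7. Of all genes, 19.6% and 11.1% were called in either direction. The 2 were Btn1a1 and Btn2a2, both on chromosome 13, of which a segment differs between these lines, and its part was not tested. In D2-13B6 minus B6-13D2 the H3K27ac of the 7 genes was lower at 4, Btn1a1 and Btn2a2 among them, and higher at 1. This compares with 42.6% of all genes called and 20.2% lower. H3K9me3 was lower at 1 of 7, against 14.1% and 7.76%. This last gene was Skint11, the Skint family member that lies on chromosome 4 outside the window. It fell by 1.55 for H3K9me3 (edgeR, adjusted p = 0.000171) and by 1.04 for H3K27ac (edgeR, adjusted p = 0.000407).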

How the data were processed

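H3K9me3 and H3K27ac ChIP-seq was analysed from 4 deposited tables of 34 libraries. Their values are raw read counts per region as the authors deposited them, with duplicates removed per the file headers. The submitters' processing notes name the build mm10, Trimmomatic 0.39, HISAT2 2.2.1, MACS 1.4.2, bedtools 2.9.2 and edgeR, without roles. How the region lists were made and how reads with several matches were assigned is not given in the sources used here. Columns were matched to samples by library name, and 2 columns that matched no sample were not used. No region end lay past a GRCm38 chromosome end.

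The cluster, its members, the gene lists and the tests were chosen with earlier results of these data known. Regions were annotated with GENCODE M21, and gene totals sum the regions that overlap a gene body by at least 1 bp. CPM are scaled by TMM factors. Counts were fitted in R 4.3.3 with edgeR 4.0.16 (glmQLFit and glmQLFTest, TMM, filterByExpr with a minimum count of 10, two-sided), with 1 fit per mark over all regions or genes of the repeated libraries and line as the only term. P-values were adjusted over all features by Benjamini-Hochberg, and an adjusted p under 0.05 was a call. H3K27ac libraries of a line with a chi-square per degree of freedom below 1 (regions of 40 or more counts per pair) (B6 1 and 2, B6-13D2 1 and 3, D2 1 and 3, D2-13B6 2 and 3) were summed. The fits were tested on simulated counts. Comparisons that share a line share its libraries. Floors and bounds cover counting error only.

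Genes and regions to name were set by a rule. It took the 10 Skint genes and the region of each with the highest B6 level per mark. It also took the 5 regions with the smallest adjusted p per direction and contrast, and the regions at the edges of runs without D2 counts. Last, it took the 5 genes most like Skint4 by Pearson r of log2(CPM + 1). Not all of these regions are named in the text. Regions 15, 16, 24, 29, 42, 50, 54 and 59 and the shared stretches were chosen after their values were seen where this rule does not name them. Stretches were aligned with blastn 2.17.0 and Biopython 1.88 on RefSeq GRCm38.p6. Alternatives changed the scaling (library totals), the filter, the summing of libraries, the lines in the fit, the tool (DESeq2 1.42.0), a replicate block, the floor, and left out each library in turn.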

Additional observations from a re-analysis of the deposited data

Results flagged for a closer look

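At part of the copies of the cluster's shared stretches elsewhere in the genome, the difference between B6-13D2 and B6 was not the same as that between D2 and D2-13B6, by edgeR's test of the difference itself. Each genotype is 1 line, so this compares 4 lines, and the chromosome 13 segment and other differences between those lines cannot be told apart. At copies of the stretch of regions 9, 18 and 53 the difference in H3K27ac was called at 248 of 719 (34.5%, against 5.3% of all regions), and in each the change was more positive in B6-13D2 minus B6. At copies of the stretch of regions 20, 29 and 38 it was called at 83 of 1176 for H3K9me3 (7.06%, against 0.389%), each more negative in B6-13D2 minus B6. For H3K27ac at the same copies it was called at 84 of 1067 (7.87%, against 5.3%), a share near that of all regions, with 67 more positive and 17 more negative in B6-13D2 minus B6. Inside the cluster, 0 regions were called in this test in either mark. Many regions there had few or no counts in D2 and D2-13B6, so a difference was hardly detectable at those.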

How the results depend on the processing

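Of 2882 values recomputed for single members under the alternatives, 2805 kept their side of the threshold, 55 fell below it and 22 passed it. Of the called values 0 changed sign, while values that were not called could do so. The number of cluster regions without D2 counts was 0, 3, 0 and 2 with a floor of 0 counts (H3K9me3 separate lines and repeats, H3K27ac separate lines and repeats), and 4, 7 and 7 with a B6 mean of at least 20 (H3K9me3 separate lines and repeats, H3K27ac repeats). With a floor of 5, chosen after seeing the data, it was 7 for the H3K27ac separate lines. Scaling by library totals gave D2 to B6 ratios of 0.311 (H3K9me3 separate lines) and 0.169 (H3K27ac repeats). In D2-13B6 minus B6-13D2, a mean of at least 20 counts left 3 H3K9me3 and 14 H3K27ac regions called, and 3 and 4 Skint genes, since fewer were tested, and DESeq2 called 22 and 16 regions. For H3K27ac in B6-13D2 minus B6, a fit of only the 2 lines called 10 regions and 2 Skint genes, separate libraries 2 genes, and DESeq2 1 region and 0 genes. In D2 minus D2-13B6 a fit of only the 2 lines and DESeq2 each called 0 regions. The cause of these was not tested.

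With single libraries left out, the ratios ran from 0.286 to 0.304 and 0.161 to 0.208 for H3K9me3 and from 0.521 to 0.568 and 0.181 to 0.188 for H3K27ac (separate lines, then repeats). H3K27ac calls ran from 3 to 5, 0 to 1 and 21 to 38 regions and from 0 to 2, 0 to 0 and 6 to 8 Skint genes (segment contrast on B6, segment contrast on D2, then D2-13B6 minus B6-13D2). H3K9me3 calls ran from 0 to 0, 0 to 0 and 27 to 34 regions and from 0 to 0, 0 to 0 and 5 to 6 genes. Where a line kept 1 sample, it was assumed to vary like the others. With the replicate number as a block, and every library separate, 6, 1 and 21 H3K27ac regions and 0, 0 and 33 H3K9me3 regions were called in these contrasts, and 1, 0 and 7 and 0, 0 and 6 Skint genes. Correlations of same-numbered libraries ran from -0.067 to 0.069 for H3K27ac and from -0.057 to 0.163 for H3K9me3, so the numbers do not pair the samples. Skint1, Skint2, Skint7 and Skint9 had too few H3K9me3 counts to be tested, and Skint2, Skint9 and Skint10 too few H3K27ac counts.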

Other observations

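In the H3K27ac repeats, neighbouring regions of the cluster had identical low counts in the lines with D2 chromosome 4. Regions 21 to 24, which lie in Skint4 and span 31.5 kb, had the same count as each other in each of the 6 D2 and D2-13B6 libraries, 3 counts in total per region. Regions 31 to 33, spanning 17.1 kb between Skint3 and Skint9, did so with 1 count in total each. D2 replicate 2 likewise had 5 counts at each of regions 17, 18 and 19. Of 27 neighbouring pairs in the cluster with 1 to 10 counts in these libraries, 5 were identical, against 9 of 2234 over the whole list (0.403%). In the H3K9me3 repeats 1 of 31 such pairs was identical, against 0.323%. The cause was not tested.

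Region 32, between Skint3 and Skint9, was among the regions without D2 counts, with 54, 62 and 57 H3K27ac counts in B6, 64, 62 and 67 in B6-13D2, 1, 0 and 0 in D2, and 0 in each D2-13B6 library. It shares a stretch with regions 24 and 25 of Skint4. Region 61 in Skint5 had no H3K9me3 counts in either D2 repeat, with 15, 13 and 17 in B6, which makes it at least 4.43-fold lower there. The 24 regions without D2 counts in at least 1 mark of the repeats had a mean of 68.0% repeat-masked bases, against 55.9% in the other 16 cluster regions with enough B6 counts in at least 1 mark. Another genomic copy was found for 5 of those 24 and for 4 of those 16.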
